A study of Mus musculus with 9 samples.

Results

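Connecting tubule cells were sought by their calcium-transport transcripts in single-cell RNA-seq of mouse kidney, and 2672 cells of 196925 kept cells (1.36%) met the rule. A kept cell had at least 1000 unique molecular identifiers (UMIs, each counting 1 captured RNA molecule), at least 500 detected genes and at most 15% mitochondrial UMIs. A chosen cell had at least 4 UMIs over Calb1, Slc8a1 and Trpv5, at most 1 UMI of Slc12a3, at most 1 UMI over markers of thick ascending limb, intercalated, endothelial and macrophage cells, and fewer UMIs over Aqp2, Aqp3 and Fxyd4 than over the 3 choosing genes. All 9 animals were male C57BL/6 mice, 6 weeks old at the start, and 3 mice made up each group. The AKI-CKD mice received 4 weekly intraperitoneal injections of cisplatin at 8 mg/kg, a schedule that takes acute kidney injury on to chronic kidney disease. The AKI-CKD + EGT mice received the same injections and drank water with ergothioneine (EGT, a diet-derived antioxidant thiol) at 0.5 mg/mL from before the first injection. Control mice received saline by the same route, and kidneys were taken at 8 weeks. One library came from part of a kidney of each mouse, so the mouse was the replicate in every test.

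The connecting tubule joins the distal convoluted tubule to the collecting duct and carries out the last regulated steps of renal calcium reabsorption. Calcium enters these cells through the apical channel Trpv5, is buffered by the calcium-binding proteins calbindin-D28k (Calb1) and calbindin-D9k (S100g), and leaves at the basolateral side through the sodium-calcium exchanger Slc8a1 and plasma membrane calcium pumps such as Atp2b4. The same segment is sensitive to aldosterone, takes up sodium through the epithelial sodium channel ENaC (Scnn1a, Scnn1b and Scnn1g), secretes potassium through Kcnj1, and releases tissue kallikrein (Klk1) into the urine.

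The chosen cells numbered 229, 308 and 380 in the Control mice, 300, 265 and 139 in the AKI-CKD mice, and 313, 363 and 375 in the AKI-CKD + EGT mice. Their summed counts ran from 527450 to 1421179 UMIs per mouse, drawn from libraries of 70106161 to 101525691 UMIs. Calb1 was detected in 2381 of the cells (89.1%), Slc8a1 in 2042 (76.4%) and Trpv5 in 383 (14.3%), so the choice rested mainly on calbindin and the exchanger. At the limit of the rule, 445 cells had exactly 4 UMIs over the choosing genes. S100g reached 1% or more of UMIs in 20.4, 29.4 and 27.1% of these cells in the Control mice, 78.9, 46.7 and 60.0% in the AKI-CKD mice and 34.3, 18.7 and 9.76% in the AKI-CKD + EGT mice. Just outside, with 3 such UMIs, the shares were 9.35, 11.1 and 13.0%, 56.7, 31.8 and 52.0%, and 21.1, 8.74 and 5.56% in the same order.

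S100g was not part of the rule and served as a check of the name connecting tubule. It split the chosen cells. A total of 1646 cells (61.6%) held S100g at 1% or more of their UMIs and are called S100g-rich here, and the other 1026 cells (38.4%) are called S100g-poor. This limit was set after the values were seen, and 467 cells (17.5%) lay near it, with S100g between 0.5% and 2% of UMIs. The median cell held 13 UMIs of the choosing genes in the S100g-rich set and 5.5 in the S100g-poor set. RNA of proximal tubule genes (a list of 14 genes such as Kap, an androgen-regulated kidney protein) took a median of 2.87% of UMIs in the S100g-rich cells and 8.86% in the S100g-poor cells.

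**Figure D1:**
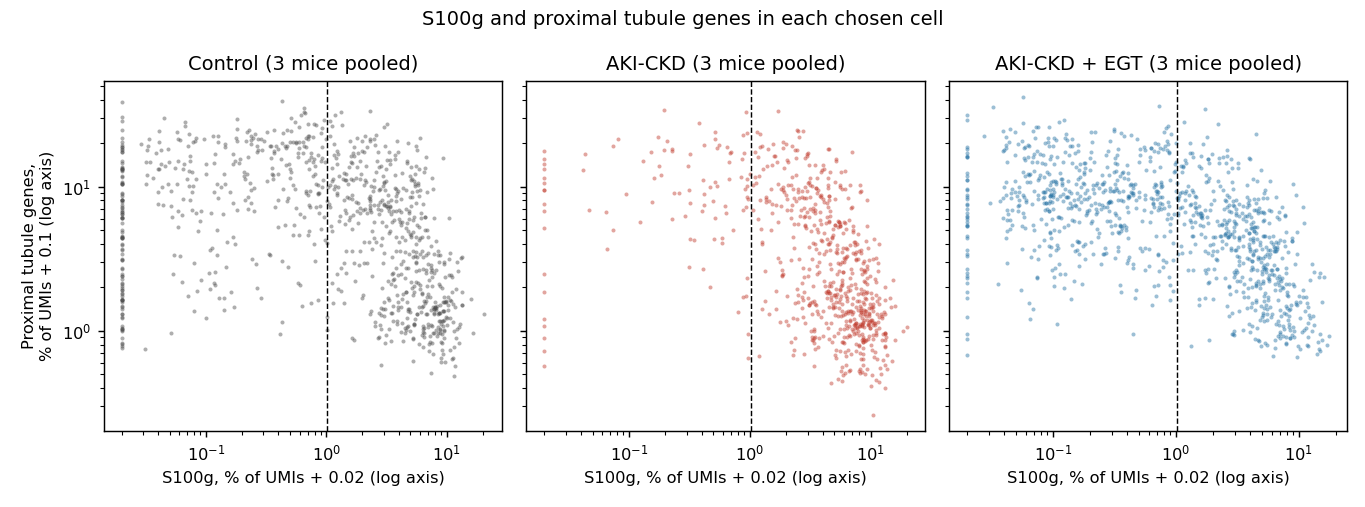
Each point is 1 chosen cell, with 1 panel per group. The horizontal axis is S100g as % of UMIs + 0.02 and the vertical axis is proximal tubule genes as % of UMIs + 0.1, both logarithmic, and the dashed line marks the limit of 1% S100g. Cells to the right of the line hold less proximal tubule RNA (median 2.87% against 8.86% of UMIs).

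The summed level of a connecting tubule marker list in UMI counts scaled to a common library total (CPM) was 127774 to 197771 in S100g-rich cells over the 9 mice and 11186 to 27822 in S100g-poor cells. In cells chosen in the same way for proximal tubule markers it was 265 to 2600 CPM. In distal convoluted tubule cells chosen by Slc12a3 it was 18770 to 91248 CPM, and in principal cells of the collecting duct 5955 to 43670 CPM. The list was thus not particular to the chosen cells. The proximal tubule list summed to 35682 to 69096 CPM in S100g-rich cells, 97319 to 142220 CPM in S100g-poor cells and 131341 to 185251 CPM in proximal tubule cells. Most of the connecting tubule list is S100g, which defined the S100g-rich set, and Klk1, so this sum is a description and does not bear on the name. Among the listed genes that neither the rule nor the S100g limit used, Hsd11b2, which protects the mineralocorticoid receptor from glucocorticoids, was 753 to 1719 CPM in S100g-rich cells, 71.8 to 367 CPM in S100g-poor cells and 2.18 to 17.3 CPM in proximal tubule cells. The ENaC subunit Scnn1g was 105 to 166, 26.04 to 114 and 0.193 to 3.30 CPM in the same order. Hsd11b2 is also a principal cell marker, with its level in principal cells given below. It therefore does not set the chosen cells apart from the collecting duct. Scnn1g was not compared with principal cells here. Levels of Atp2b1, Tfap2b and Gata3, also on the list, are not given here. By group, the proximal tubule list was lower in S100g-poor than in proximal tubule cells in Control mice (124016 to 139601 against 162583 to 185251 CPM). The same held with EGT (103356 to 119196 against 138882 to 148222 CPM). In AKI-CKD mice the ranges overlapped (97319 to 142220 against 131341 to 163723 CPM). The proximal tubule cells were chosen by Slc34a1, Lrp2 and Slc5a12, which are members of this list. Whether the S100g-poor cells were mixed droplets, cells with free RNA or another cell type was not tested, and they are given no name.

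**Figure D2:**
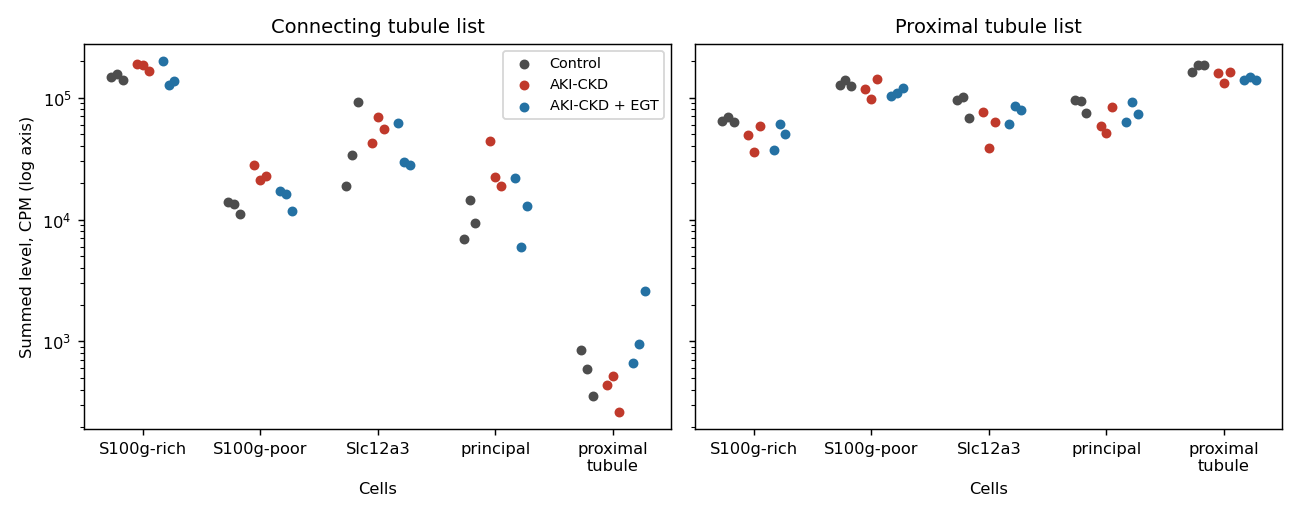
Summed CPM of the connecting tubule and proximal tubule marker lists on a logarithmic axis, 1 point per mouse, in S100g-rich and S100g-poor chosen cells, Slc12a3 cells, principal cells and proximal tubule cells. S100g-poor cells sit at 11186 to 27822 CPM on the connecting tubule list and at 97319 to 142220 CPM on the proximal tubule list.

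Genes of other cell types and of the connecting tubule both led the S100g-poor set. Among the latter, Klk1 stood at 7.68 times, Hsd11b2 at 4.36 times and S100g at 3.66 times the level in the remaining kept cells. Each of these was higher in 9 of 9 mice. Ren1 (renin), the smooth muscle genes Myh11, Tagln, Acta2 and Myl9, the pericyte gene Rgs5 and the matrix protein gene Mgp were among the genes with the greatest ratio of CPM in S100g-poor cells to the remaining kept cells. Ren1 was higher in 5 of 9 mice and its rank rests on Control mouse 3, at 5244 CPM in S100g-poor cells, beside 172 CPM in Control mouse 1 and at most 37.4 CPM in the others. Mgp was higher in 5, Tagln in 6, Myl9 in 7, Rgs5 in 8 and Myh11 and Acta2 in 9 of 9 mice. Pvalb (parvalbumin, a calcium buffer known from the early distal convoluted tubule) was detected by any UMI in 211 S100g-poor cells. At least 2 UMIs of it were found in 124 of all chosen cells. Single UMIs can be background, so detection of Pvalb was not taken as expression. At least 2 UMIs over Ren1 and a stromal list were found in 36 chosen cells, 31 of them S100g-poor. Of the 36, 11 came from Control mice, 6 from AKI-CKD mice and 19 from mice given EGT. The main results are therefore given for all chosen cells and for S100g-rich cells alone.

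In S100g-rich cells the genes with the greatest ratio to the remaining kept cells, outside the choosing genes, were Klk1, S100g, the kallikrein relative Klk1b5, Ptges (a prostaglandin E synthase), Clu (clusterin), Gm44120, Scnn1g, Hsd11b2, Olfm1, Kcne1 (a potassium channel subunit), Scnn1b, Rhbg (an ammonia transporter), Atp2b4, Pgam2 and Ltc4s. These ratios describe the cells that were chosen and were not tested. Klk1 averaged 102630 CPM, 69.9 times the level in the remaining cells, and Klk1b5, whose sequence is close to that of Klk1 and whose counts are uncertain for that reason, 53.3 times. The ENaC subunit Scnn1g stood 34 times higher, Scnn1b 27.2 times and Hsd11b2 30.5 times. Each of these genes was higher in 9 of 9 mice.

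Klk1 CPM in S100g-rich cells was 101029, 96626 and 79063 in the Control mice, 124817, 114187 and 107996 in the AKI-CKD mice, and 127799, 79673 and 92484 in the AKI-CKD + EGT mice. In proximal tubule cells Klk1 lay at 451 CPM or less in 7 of the mice, and reached 462 and 1532 CPM in AKI-CKD + EGT mice 2 and 3. With every cell thinned to 1500 UMIs (21 to 75 shallower S100g-rich cells per mouse were left out), Klk1 was detected in 93.7 to 99.6% of S100g-rich cells and in 12.9 to 75.9% of proximal tubule cells, a cell type that should lack it. Without thinning these shares were 96.1 to 99.5% and 26.9 to 90.02%. S100g behaved alike, at 12.2 to 68.6% of proximal tubule cells. Detection of Klk1 or S100g in a cell was therefore not taken as expression. Hsd11b2 and Scnn1b, which chose neither cell set, had little such background at the same depth. Hsd11b2 was detected in 40.01 to 62.3% of S100g-rich and 0.350 to 2.24% of proximal tubule cells, and Scnn1b in 16.8 to 26.4% and 0.0584 to 0.587%. Calb1 was detected in 82.7 to 92.1% and 0.599 to 4.17%, and Trpv5 in 6.61 to 14.3% and 0.0116 to 0.0986%. Proximal tubule cells were chosen for few UMIs of Calb1 and Trpv5, so these shares do not measure background. Trpv6, the second epithelial calcium entry channel, was nearly undetected, at 0 to 5.23 CPM over all chosen cells of a mouse.

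Relative to neighbouring segments, Atp2b4 ran from 116 to 234 CPM in S100g-rich cells, from 76.6 to 155 CPM in Slc12a3 cells (1774 distal convoluted tubule cells chosen by the sodium-chloride cotransporter) and from 4.45 to 44.8 CPM in 1497 principal cells of the collecting duct. Rhbg ran the other way, from 243 to 455 CPM in S100g-rich cells, 132 to 503 CPM in principal cells and 6.21 to 37.8 CPM in Slc12a3 cells. Kcne1 was 84.8 to 203 CPM in S100g-rich cells, 88.3 to 395 CPM in principal cells and 0 to 6.81 CPM in Slc12a3 cells. Hsd11b2 was 753 to 1719 CPM in S100g-rich cells, 1588 to 3133 CPM in principal cells and 8.80 to 88.9 CPM in Slc12a3 cells. In these levels the S100g-rich cells were closer to the segment before them for the calcium pump and closer to the segment after them for Rhbg, Kcne1 and Hsd11b2.

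Klk1 separated the S100g-rich cells further. It took 5% or more of UMIs in 952 cells, less than 1% in 406 cells and a value between these in 288. The limits were chosen after the values were seen, and what follows describes the split without a test. Clu was 3580 to 4944 CPM in the Klk1-high cells of the 9 mice and 281 to 947 CPM in the Klk1-low cells. Atp2b4 was 177 to 280 CPM against 8.56 to 115 CPM, and Kl (klotho, the co-receptor of the phosphate-regulating hormone FGF23) 1053 to 1698 CPM against 372 to 921 CPM. None of these 3 genes overlapped between the sets. Calb1 had the opposite order within each mouse, for example 1348 CPM in Klk1-high and 4183 CPM in Klk1-low cells of Control mouse 1 and 1998 against 2854 CPM in AKI-CKD mouse 1. Kcne1 was also lower in Klk1-high cells of every mouse, at 35.0 to 158 CPM against 140 to 461 CPM. The water channel Aqp2 was 241 to 578 CPM in Klk1-high cells and 315 to 2102 CPM in Klk1-low cells. Genes typical of the proximal tubule were also higher in Klk1-low cells, among them Slc22a12 (a urate transporter) at 2.51 times, Acaa1b (a peroxisomal thiolase) at 2.48 times and Mep1a (a brush border protease) at 2.45 times the level in Klk1-high cells, each in 9 of 9 mice. Mitochondrial genes took 1.73 to 8.41% of UMIs in Klk1-low cells and 1.46 to 5.01% in Klk1-high cells, with the higher share in Klk1-low cells of every mouse except AKI-CKD mouse 3. Cells above the mitochondrial limit had been left out, so these shares are partly set by the choice of cells. The part of proximal tubule RNA in the split was not tested. Klk1-high cells made up 56.6, 57.8 and 44.96% of S100g-rich cells in the Control mice, 74.7, 62.3 and 58.9% in the AKI-CKD mice, and 69.3, 40.9 and 41.8% in the AKI-CKD + EGT mice, so that the AKI-CKD range lay above the Control range and overlapped that with EGT.

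The chosen cells formed 0.996, 1.12 and 1.55% of kept cells in the Control mice (mean 1.22% ± 0.290, SD, n = 3). In the AKI-CKD mice they formed 1.296, 1.37 and 0.597% (1.09% ± 0.428, SD, n = 3), and in the AKI-CKD + EGT mice 1.82, 1.67 and 2.17% (1.89% ± 0.259, SD, n = 3). AKI-CKD and Control mice overlapped, and their means differed by -0.134 percentage points (two-sided exact permutation test, p = 0.7). The direction turned with a minimum of 6 marker UMIs (0.0140 points, exact p = 1), with cells thinned to 2000 UMIs (0.209 points, exact p = 0.7) and in S100g-rich cells (0.228 points, exact p = 0.5). The AKI-CKD + EGT mice all lay above the AKI-CKD mice, by 0.799 points on average (exact permutation p = 0.1, the smallest that 3 against 3 mice can give). With cells thinned to 2000 UMIs the EGT difference was 0.441 points (exact p = 0.3), and with a minimum of 6 marker UMIs 0.352 points (exact p = 0.1). Counted as S100g-rich cells, that difference was -0.0123 points (exact p = 1), and as a share of distal tubule cells -1.45 points (exact p = 0.9).

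The makeup of the chosen cells, by the S100g limit set after the values were seen, also differed between the mice. S100g-rich cells were 49.3, 58.4 and 62.6% of them in the Control mice (56.8% ± 6.79, SD, n = 3), 91.0, 83.0 and 80.6% in the AKI-CKD mice (84.9% ± 5.45, SD, n = 3), and 67.7, 45.2 and 35.7% in the AKI-CKD + EGT mice (49.5% ± 16.4, SD, n = 3). All AKI-CKD mice lay above all other mice. The differences were 28.1 points for AKI-CKD against Control and -35.3 points for AKI-CKD + EGT against AKI-CKD (exact permutation p = 0.1 for each, the smallest possible). In all chosen cells, the proximal tubule list summed to 89189 to 102369 CPM in Control mice, 49159 to 79429 CPM with cisplatin alone and 60958 to 100724 CPM with cisplatin and EGT. The same list in S100g-rich cells summed to 63099 to 69097 CPM in Control mice, 35683 to 58104 CPM in AKI-CKD mice and 36972 to 60531 CPM in mice given EGT, so AKI-CKD and Control mice did not overlap there either. Intercalated cell genes in S100g-rich cells summed to 249 to 314 CPM in Control mice, 354 to 371 CPM in AKI-CKD mice and 231 to 365 CPM in mice given EGT. Median UMIs per S100g-rich cell were 2159 to 2216 in Control mice, 2716 to 3417 in AKI-CKD mice and 1944 to 2863 in mice given EGT. Thick ascending limb genes summed to 447 to 636 CPM in Control mice, 299.7 to 372 CPM in AKI-CKD mice and 406 to 738 CPM in mice given EGT in these cells, and red cell genes to 3.24 to 102, 0 to 2.54 and 2.62 to 95.1 CPM. The S100g-rich cells of AKI-CKD and Control mice thus did not overlap in these 4 lists or in depth, and the part of these in each result below was not tested. The rule limits Atp6v1g3 of the intercalated list and Umod and Slc12a1 of the thick ascending limb list. Those sums are therefore partly set by the choice of cells.

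**Figure D3:**
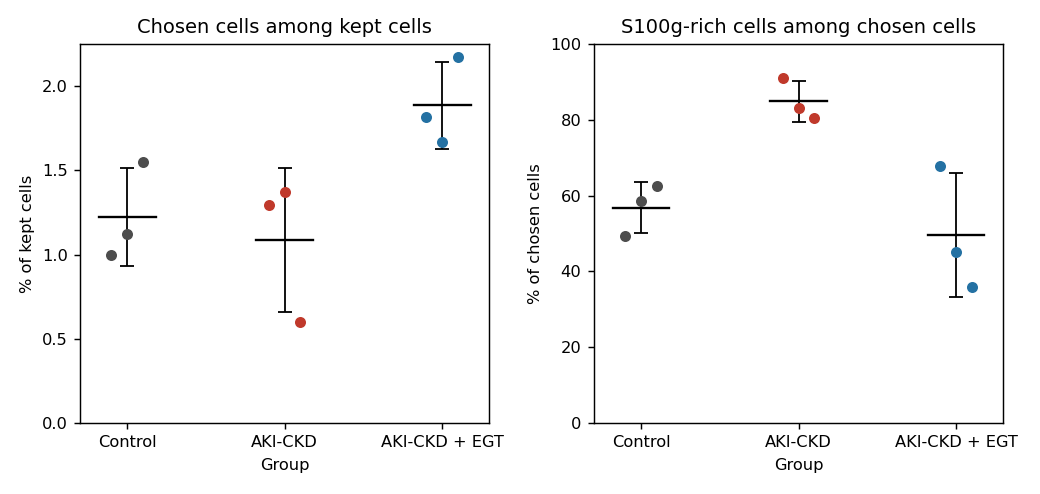
Left, chosen cells as % of kept cells; right, S100g-rich cells as % of chosen cells. Points are mice, lines are group means and bars are SD (n = 3). The share of S100g-rich cells is 80.6 to 91.0% in AKI-CKD mice and at most 67.7% elsewhere.

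The first comparison asked how repeated cisplatin altered these cells. UMIs were summed per mouse and tested with edgeR's quasi-likelihood test, and a gene was called at an adjusted p (Benjamini-Hochberg) under 0.05. None of 9304 genes was called between AKI-CKD and Control mice (0%). The lowest edgeR adjusted p was 0.150, and 1015 genes had an unadjusted p under 0.05, 468 higher (5.03%) and 547 lower (5.88%) in AKI-CKD. DESeq2 called 49 genes, and without AKI-CKD + EGT mouse 1 edgeR called 95. In S100g-rich cells edgeR called none of 6351 genes (0%), with 199 higher (3.13%) and 246 lower (3.87%) at an unadjusted p under 0.05, and DESeq2 called 1. The second comparison asked how EGT altered the cisplatin response, and used the same AKI-CKD mice. It called 13 of 9304 genes (0.14%), 6 higher and 7 lower with EGT, with 714 higher (7.67%) and 607 lower (6.52%) at an unadjusted p under 0.05. Leaving out single mice moved this count to 0 (AKI-CKD mouse 1, AKI-CKD mouse 3, EGT mouse 2), 1 (EGT mouse 3), 8 (Control mouse 2) and 572 (EGT mouse 1). In S100g-rich cells it was 0 by edgeR (0%) and 0 by DESeq2, with 205 genes higher (3.23%) and 170 lower (2.68%) at an unadjusted p under 0.05, and 10 by edgeR without AKI-CKD + EGT mouse 1. Unless a call is stated, the differences below did not pass. Counts of list members below are to be read beside these shares over all genes, and several lie near them. The share of all genes with no overlap of mice was not counted, so a lack of overlap is a description only.

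The choosing genes define the cells, so their levels are a description only. Calb1 was 1227, 1986 and 3684 CPM in the Control mice, 2001, 2598 and 1930 CPM in the AKI-CKD mice, and 2575, 1817 and 1042 CPM in the AKI-CKD + EGT mice. Slc8a1 lay between 1909 and 2872 CPM in all 9 mice, and Trpv5 between 30.0 and 104 CPM. These levels overlapped between groups. Trpv5 was detected in 7.37 to 13.3% of chosen cells in Control mice, 14.3 to 23.7% in AKI-CKD mice and 12.4 to 18.2% in mice given EGT. With cells thinned to 1500 UMIs these shares were 4.46 to 8.42%, 6.94 to 12.2% and 8.39 to 8.80%, and Control and AKI-CKD mice overlapped.

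Of 20 calcium and magnesium genes, 15 were measured well enough to test and were not part of the rule. In AKI-CKD against Control mice 12 had a positive log2 fold change, 3 higher and 1 lower at an unadjusted p under 0.05, and the median was 0.32, beside 0.00 over all genes tested. S100g was 17146, 29474 and 28038 normalised CPM (CPM after TMM scaling between mice) in the Control mice, 54332, 52706 and 39737 in the AKI-CKD mice, and 41208, 14293 and 10739 in the AKI-CKD + EGT mice. All AKI-CKD mice exceeded all Control mice. Its log2 fold change was 0.98 ± 0.39 (SE), and -1.15 ± 0.39 for EGT against AKI-CKD. The S100g-rich cells were defined by this gene, so it was not tested in them. Klk1 was 45292, 58505 and 46012 normalised CPM in the Control mice, 122483, 99271 and 91002 in the AKI-CKD mice, and 88747, 31842 and 28880 in the AKI-CKD + EGT mice. It was higher in AKI-CKD than Control by 1.06 ± 0.35 on the log2 scale (edgeR adjusted p = 0.30) in all chosen cells and by 0.37 ± 0.23 in S100g-rich cells. Its EGT difference was -1.07 ± 0.35 in all chosen cells and -0.24 in S100g-rich cells.

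All AKI-CKD mice also exceeded all Control mice in the pump gene Atp2b4, at 93.7, 103 and 75.6 normalised CPM in the Control mice, 147, 154 and 146 in the AKI-CKD mice, and 172, 89.6 and 67.8 in the AKI-CKD + EGT mice. Its log2 fold change of 0.72 ± 0.28 in AKI-CKD was 0.28 in S100g-rich cells. With EGT, mouse 1 lay above and the others below the AKI-CKD mice, and the unadjusted p was above 0.05. Trpm7, a magnesium-permeable channel, was 57.8, 59.9 and 58.1 normalised CPM in the Control mice, 33.7, 41.5 and 36.6 in the AKI-CKD mice and 44.6, 53.6 and 69.8 in the AKI-CKD + EGT mice. The AKI-CKD mice were lowest throughout, by -0.65 ± 0.23 against Control (-0.47 in S100g-rich cells). Kl was 565, 773 and 631 normalised CPM in the Control mice, 1172, 942 and 910 in the AKI-CKD mice and 1062, 511 and 355 in the AKI-CKD + EGT mice, and its EGT difference was -0.65 in all chosen cells and -0.07 in S100g-rich cells. Cyp24a1, which breaks down active vitamin D, was 15.6, 17.97 and 38.6 normalised CPM in the AKI-CKD mice and 33.0, 98.8 and 39.98 in the AKI-CKD + EGT mice, a log2 difference of 1.37 ± 0.43 that was 0.67 in S100g-rich cells. The vitamin D receptor gene Vdr, the parathyroid hormone receptor gene Pth1r, the calcium-sensing receptor gene Casr, the magnesium-handling gene Cnnm2 and the pump regulator Fxyd2 had an unadjusted p above 0.05 in both comparisons. Within S100g-rich cells, none of 14 tested calcium and magnesium genes had an unadjusted p under 0.05 in either comparison, and the medians were 0.01 for AKI-CKD against Control and 0.14 for EGT against AKI-CKD.

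Of 24 sodium and potassium transport genes, 22 were tested, and 8 were higher and 1 lower in AKI-CKD than Control mice at an unadjusted p under 0.05 (median 0.32). The ENaC gene Scnn1a was 119, 155 and 151 normalised CPM in the Control mice, 222, 270 and 290 in the AKI-CKD mice, and 205, 111 and 86.7 in the AKI-CKD + EGT mice. It did not overlap between AKI-CKD and the other groups. Its log2 fold change was 0.87 ± 0.26 in AKI-CKD and -0.96 with EGT, and 0.29 and -0.22 in S100g-rich cells, where it was 261, 247 and 238, then 231, 329 and 360, then 309, 240 and 227 in the same order of groups. In the AKI-CKD comparison, Scnn1b differed by 0.70 in all chosen and 0.26 in S100g-rich cells, and Hsd11b2 by 1.10 ± 0.41 and 0.52 ± 0.25. The inward rectifier gene Kcnj10 differed by 0.91 and 0.30, and Atp1b1, the beta subunit of the sodium pump, by 0.60 and 0.28. For these genes the difference in all chosen cells was thus at least 1.5 times that in S100g-rich cells.

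Kcnj1 and Bsnd were among the genes that kept an unadjusted p under 0.05 in S100g-rich cells, in which proximal tubule, intercalated cell, thick ascending limb and red cell RNA also did not overlap between AKI-CKD and Control mice as given above. Kcnj1, the potassium secretory channel ROMK, was 226, 251 and 240 normalised CPM in S100g-rich cells of the Control mice, 348, 319 and 409 in the AKI-CKD mice, and 421, 227 and 222 in the AKI-CKD + EGT mice (0.57 ± 0.22 for AKI-CKD, -0.27 for EGT). Bsnd (barttin, needed for basolateral chloride transport) was 41.7, 50.3 and 47.3 in the Control mice, 69.7, 70.6 and 99.4 in the AKI-CKD mice, and 73.3, 54.3 and 37.9 in the AKI-CKD + EGT mice (0.72 ± 0.26 and -0.44). In both genes all AKI-CKD mice lay above all Control mice. Nedd4l, the ubiquitin ligase that removes ENaC from the membrane, went the other way. In S100g-rich cells it was 139, 197 and 97.6 normalised CPM in the Control mice, 84.2, 93.7 and 96.8 in the AKI-CKD mice and 89.4, 103 and 165 in the AKI-CKD + EGT mice, a log2 fold change of -0.66 ± 0.26 in AKI-CKD and 0.36 with EGT. Nr3c2 (the mineralocorticoid receptor), Prss8, Wnk1, Wnk4 and Klhl3 had an unadjusted p above 0.05 in both comparisons of all chosen cells. The list as a whole had 11 genes lower and 1 higher with EGT at that level in all chosen cells (median -0.41), and 0 lower and 0 higher by edgeR in S100g-rich cells (21 tested, median -0.15).

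**Figure D4:**
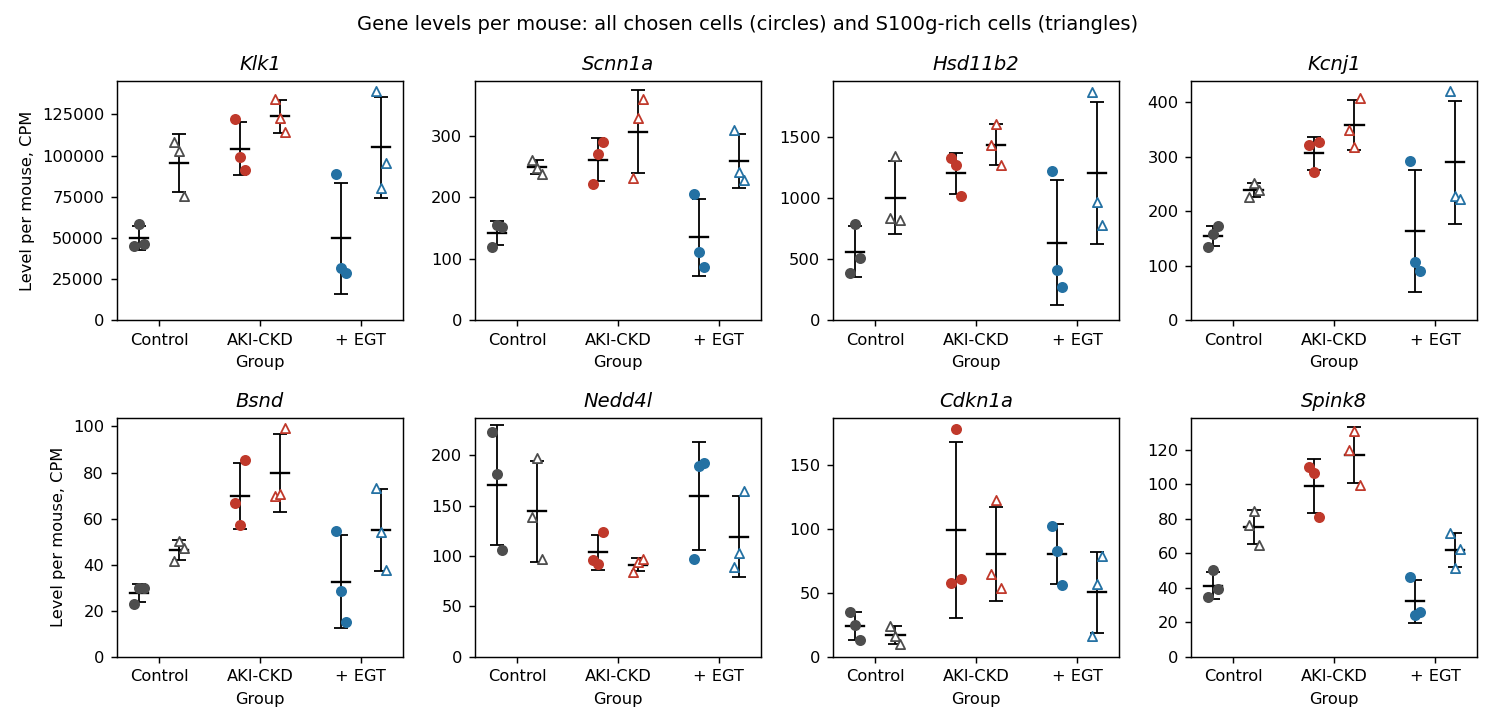
Normalised CPM of Klk1, Scnn1a, Hsd11b2, Kcnj1, Bsnd, Nedd4l, Cdkn1a and Spink8 per mouse in all chosen cells (circles) and S100g-rich cells (triangles), with group mean ± SD (n = 3). Scnn1a in all chosen cells is 119 to 155 in Control and 222 to 290 in AKI-CKD mice, and the triangles of the groups overlap.

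The next genes had the smallest unadjusted p in AKI-CKD against Control within 2 limits, and none passed. The limits were an average log2 CPM of 5 or more and no overlap of mice in all chosen cells. Cdkn1a, the cell cycle inhibitor p21 and a p53 target, was 34.7, 24.6 and 13.3 normalised CPM in the Control mice, 57.9, 179 and 60.9 in the AKI-CKD mice and 103, 82.9 and 56.2 in the AKI-CKD + EGT mice (2.10 ± 0.44, edgeR adjusted p = 0.15). In S100g-rich cells it was 24.3, 16.1 and 10.04 in the Control mice, 64.8, 123 and 53.8 in the AKI-CKD mice and 16.1, 56.8 and 78.5 in the AKI-CKD + EGT mice (2.42 ± 0.48 for AKI-CKD against Control, edgeR adjusted p = 0.18). Every AKI-CKD mouse lay above every Control mouse in both sets, and the EGT mice overlapped the AKI-CKD mice. In all chosen cells that lack of overlap with Control was a condition for naming the gene. Serpinb1a (a serine protease inhibitor) differed by 1.46 ± 0.28, Cav1 (caveolin) by 1.29 ± 0.25, Spink8 by 1.28 ± 0.26, Rnf186 by 1.05 ± 0.23 and Cd24a by 0.97 ± 0.22. In S100g-rich cells, Serpinb1a differed by 0.89, Cav1 by 0.66, Spink8 by 0.67, Rnf186 by 0.81 and Cd24a by 0.70, and of these genes Cd24a overlapped between AKI-CKD and Control mice there. Among lower genes, Pvalb was 52.6, 104 and 244 normalised CPM in the Control mice and 7.78, 32.6 and 10.2 in the AKI-CKD mice (-2.98 ± 0.52), but -0.79 in S100g-rich cells. Acsm3 (a medium-chain acyl-CoA synthetase) differed by -1.66 ± 0.34 in all chosen cells and -1.73 in S100g-rich cells, and the transporter gene Slc16a14 by -1.66 ± 0.35 and -1.24. Aspa, Osbpl8 and Mpv17l were lower by -1.51, -1.30 and -0.89 in all chosen cells and by -1.16, -0.71 and -0.68 in S100g-rich cells.

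Of 28 p53 target genes, 21 passed the filter on low counts, and 9 were higher and 0 lower in AKI-CKD than Control mice at an unadjusted p under 0.05 (median 0.53). In S100g-rich cells 14 passed the filter, 7 were higher and 0 lower, and the median was 0.53 over this smaller set of genes. Genes low in Control mice, such as Phlda3 and Ephx1 below, could pass the filter through the other groups. These counts and medians are therefore no support for a direction. Phlda3, a p53-induced repressor of Akt, was close to 0 in Control mice and passed only through the other groups, at 3.85, 0 and 2.49 normalised CPM in the Control mice, 23.4, 28.1 and 12.2 in the AKI-CKD mice and 18.7, 5.86 and 12.2 in the AKI-CKD + EGT mice. Ephx1 (microsomal epoxide hydrolase) was 7.70, 9.62 and 9.97 in the Control mice, 31.1, 25.8 and 30.5 in the AKI-CKD mice and 33.0, 18.4 and 19.7 in the AKI-CKD + EGT mice (1.65 ± 0.34, and 1.76 ± 0.43 in S100g-rich cells). Of the 4 listed genes with the highest level, Btg2 differed by 0.74, Bax by 0.37, Gdf15 by 0.19 and Dcxr by -0.13 in all chosen cells. Mdm2, the ligase that p53 induces against itself, was 30.8, 24.6 and 28.2 in the Control mice and 38.9, 46.0 and 50.8 in the AKI-CKD mice. With EGT, 1 gene of the list was higher and 5 lower in all chosen cells (median -0.31), and 0 higher and 3 lower in S100g-rich cells (median -0.31), with Sesn2 at 58.0, 46.1 and 64.5 normalised CPM in the AKI-CKD mice and 19.1, 31.0 and 29.8 in the AKI-CKD + EGT mice (-1.12 ± 0.30). Ephx1, Phlda3, Mdm2 and Sesn2 here, and Ehf, Adcy6, Avpr2, mt-Nd4, Nfe2l2 and Klf2 below, were chosen after their values were seen.

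Of 30 tubule injury genes, 17 were tested, with 9 higher and 1 lower in AKI-CKD at an unadjusted p under 0.05 (median 0.69). In S100g-rich cells 13 were tested, with 3 higher and 0 lower (median 0.25). Over all genes 5.03% were higher and 5.88% lower in all chosen cells, and 3.13% and 3.87% in S100g-rich cells. Genes low in 1 group could pass the filter through the others. Counts and medians of this list are therefore no support for a direction. Wfdc2, an epithelial secreted protein, was 611, 964 and 637 normalised CPM in the Control mice, 1993, 1954 and 1696 in the AKI-CKD mice and 1487, 477 and 387 in the AKI-CKD + EGT mice. In S100g-rich cells it was 1252, 1609 and 987 in the Control mice, 2164, 2431 and 2096 in the AKI-CKD mice and 2235, 1124 and 1099 in the AKI-CKD + EGT mice (0.80 ± 0.24 for AKI-CKD, -0.58 for EGT). In these cells EGT mouse 1 lay within the AKI-CKD range and both other EGT mice within the Control range. Cst3 (cystatin C) differed by 0.87 in AKI-CKD and by 0.47 in S100g-rich cells, where it was lower with EGT by -0.63. Spp1 (osteopontin) differed by 0.89 and Clu by 0.95 in all chosen cells, against 0.34 and 0.25 in S100g-rich cells. With EGT, 10 genes of the list were lower and 2 higher at that level in all chosen cells (median -0.75), and 4 lower and 0 higher in S100g-rich cells (median -0.32).

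Of 13 claudin and junction genes, 11 were tested (3 higher and 0 lower in AKI-CKD, median 0.54) and 8 in S100g-rich cells (1 higher, 0 lower, median 0.28). Cldn7 was 89.9, 141 and 63.9 normalised CPM in the Control mice, 190, 165 and 175 in the AKI-CKD mice and 124, 62.8 and 49.5 in the AKI-CKD + EGT mice. The kidney cadherin gene Cdh16 was 977, 1056 and 813 in S100g-rich cells of the Control mice, 1265, 1112 and 1255 in the AKI-CKD mice, and 1038, 894 and 733 in the AKI-CKD + EGT mice (0.35 ± 0.17 and -0.44). Among 22 tested transcription factors of distal tubule identity, 3 were higher and 2 lower in AKI-CKD (median -0.02), and among 17 in S100g-rich cells 1 was higher and 1 lower (median -0.16). Ehf was 34.8, 50.3 and 60.3 normalised CPM in S100g-rich cells of the Control mice, 83.2, 82.2 and 88.7 in the AKI-CKD mice, and 63.0, 67.2 and 70.4 in the AKI-CKD + EGT mice (0.73 ± 0.23). Esrrg, a nuclear receptor, was lower by -0.92 ± 0.27 in all chosen cells and by -0.65 ± 0.28 in S100g-rich cells. Tfcp2l1, which sets collecting duct identity, differed by 0.70 in all chosen cells and 0.25 in S100g-rich cells. Of 5 tested genes of the water and vasopressin list, 2 were higher and 1 lower in AKI-CKD in both sets. Over all genes 5.03% were higher and 5.88% lower in all chosen cells, and 3.13% and 3.87% in S100g-rich cells. Adcy6, the adenylyl cyclase downstream of the vasopressin receptor, was 41.7, 34.2 and 27.3 in S100g-rich cells of the Control mice, 54.2, 53.3 and 51.1 in the AKI-CKD mice and 42.5, 33.6 and 43.3 in the AKI-CKD + EGT mice (0.69 ± 0.26). The receptor gene Avpr2 differed by 1.18 in all chosen cells and 0.62 in S100g-rich cells, and the phosphodiesterase gene Pde4d by -0.91 and -0.72.

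**Figure D5:**
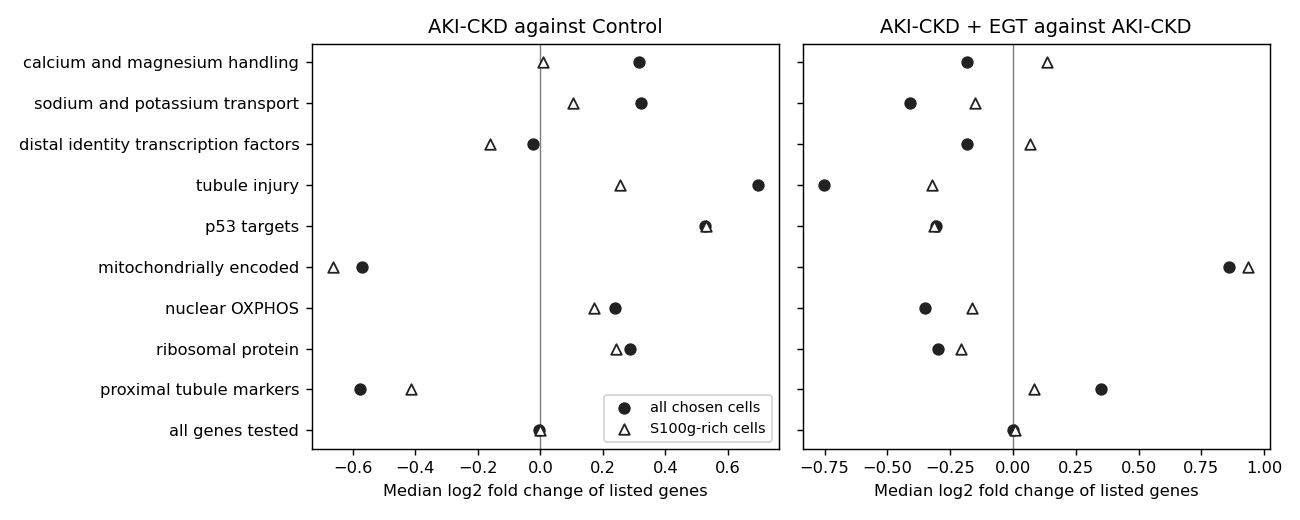
Median log2 fold change of 9 gene lists and of all genes tested, for each comparison, in all chosen cells (circles) and S100g-rich cells (triangles). For AKI-CKD the p53 list has a median of 0.53 in each set, calcium and magnesium handling 0.32 and 0.01, and tubule injury 0.69 and 0.25. The number of genes tested differs between the sets in each of these lists. Genes low in 1 group could pass the filter through the others, so the medians are no support for a direction.

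The genes called with EGT included matrix genes and epithelial genes. Mgp (matrix Gla protein) was called higher with EGT, from 3.46, 1.12 and 4.06 normalised CPM in the AKI-CKD mice to 159, 213 and 137, with 39.8, 4.28 and 217 in the Control mice (5.88 ± 1.03, edgeR adjusted p = 0.039). In S100g-rich cells it was 0 to 6.73 CPM and too low to test. The other genes called higher were Klf12, Ltbp4, Fbln5, Fbln2 and Stmn2, which were outside the level limit for named genes and are given because only 6 were called. Mgp, Ltbp4 and Fbln5 were close to 0 in AKI-CKD mice, and Fbln2 and Stmn2 in AKI-CKD and Control mice, so these genes passed the filter on low counts through the groups where they were high, and their calls are no support for a direction. Ltbp4, Fbln5 and Fbln2 encode extracellular matrix proteins. Fbln5 was 0.865, 2.25 and 0 normalised CPM in the AKI-CKD mice and 31.2, 30.1 and 31.2 in the AKI-CKD + EGT mice, and Ltbp4 7.78, 1.12 and 0 against 40.2, 98.8 and 37.3. In the Control mice Fbln5 was 8.99, 0 and 5.81 and Ltbp4 7.70, 1.07 and 14.9. Fbln2 was 0.865, 0 and 0 against 10.7, 29.3 and 13.6, and Stmn2 1.73, 1.12 and 0 against 40.2, 42.7 and 18.3, with 2.57, 2.14 and 4.15 and 0, 1.07 and 3.32 in the Control mice. Klf12, a transcription factor gene, was 8.65, 6.74 and 6.09 in the AKI-CKD mice and 24.1, 32.6 and 34.6 in the AKI-CKD + EGT mice (2.03 ± 0.33). It differed by 2.397 in S100g-rich cells (edgeR adjusted p = 0.40). Klf12 was also low in AKI-CKD mice and could pass the filter through the groups where it was higher. Its call is likewise no support for a direction. Beside these, a stromal marker list summed to 29.3 to 221 CPM in Control mice, 12.8 to 262 CPM with cisplatin alone and 185 to 291 CPM with EGT in all chosen cells, and to 0 to 23.5 CPM in S100g-rich cells of all mice. An endothelial list summed to 20.2 to 45.3, 13.3 to 70.1 and 61.2 to 153 CPM, and a podocyte list to 14.1 to 41.4, 15.2 to 38.7 and 54.2 to 164 CPM. Kdr of the endothelial list is limited by the rule.

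Spink8, a serine protease inhibitor gene, fell with EGT, from 110, 107 and 81.2 normalised CPM in the AKI-CKD mice to 46.4, 24.3 and 25.7, near the 34.7, 50.2 and 39.0 of the Control mice (-1.65 ± 0.26, edgeR adjusted p = 0.026). In S100g-rich cells it was 76.5, 84.5 and 64.6 in the Control mice, 120, 131 and 99.4 in the AKI-CKD mice and 71.8, 51.7 and 62.3 in the AKI-CKD + EGT mice (-0.91 ± 0.22, edgeR adjusted p = 0.40). All AKI-CKD mice exceeded all others in both sets. Spink8, Serpinb1a and Cd24a were also named in the first comparison. Both comparisons share the AKI-CKD mice, so opposite signs in them are not independent. A return to the Control level was not tested. Serpinb1a fell from 92.5, 76.4 and 69.1 to 41.1, 19.2 and 20.3 (-1.59 ± 0.28, edgeR adjusted p = 0.039; -0.76 in S100g-rich cells). Tent5c fell by 1.43 on the log2 scale, Cd24a by 1.23 and Pmepa1, a target and inhibitor of TGF-beta signalling, by 1.00, with -0.88, -0.72 and -0.52 in S100g-rich cells. Prr35 (-1.88) and Thbs1 (-1.49) were also called lower and lay under the level limit for named genes. The 7 lower calls depended on the cells, the mice and the model used. With replicate number as a block there were 0 higher and 0 lower calls, so every call named here was lost. The lower calls became 0 with a minimum of 6 marker UMIs, 0 with no limit on Slc12a3, 1 without the 10% of cells richest in proximal tubule RNA, 3 without the 10% with the most UMIs and 1 with the 6 compared mice alone, beside 5, 5, 3, 1 and 7 higher calls. DESeq2 gave 29 higher and 35 lower calls, and leaving out cells with stromal or Ren1 UMIs 17 and 12. Leaving out Control mouse 1 gave 7 and 10, Control mouse 2 7 and 1, Control mouse 3 6 and 3, AKI-CKD mouse 2 15 and 2, and EGT mouse 1 283 and 289. Without AKI-CKD mouse 1, AKI-CKD mouse 3 or EGT mouse 2 there were 0 and 0, and without EGT mouse 3 there were 1 and 0.

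RNA of the mitochondrial genome varied between mice of a group as well as between groups. Mitochondrial genes took 6.17, 4.04 and 1.65% of UMIs of the chosen cells in the Control mice, 2.68, 2.48 and 2.24% in the AKI-CKD mice, and 3.11, 5.26 and 6.47% in the AKI-CKD + EGT mice. The limit on mitochondrial UMIs of kept cells acts on these genes and acted unequally. Without it the chosen cells numbered 528 rather than 375 in AKI-CKD + EGT mouse 3. They numbered 142 rather than 139 in AKI-CKD mouse 3 and 291 rather than 229 in Control mouse 1. Levels of mitochondrial genes are thus partly set by the choice of cells. Of 12 tested mitochondrially encoded genes, 7 were higher and 0 lower with EGT at an unadjusted p under 0.05 (median 0.86), and 7 of 11 in S100g-rich cells (median 0.94). These counts and medians, and the mt-Nd4 difference that follows, are therefore no support for a direction. mt-Nd4 was 2041, 1899 and 1761 normalised CPM in S100g-rich cells of the AKI-CKD mice and 2723, 5107 and 5822 in those of the AKI-CKD + EGT mice (1.26 ± 0.31), and 5177, 3278 and 1482 in the Control mice. The Control range held all of these mice except AKI-CKD + EGT mouse 3. The nuclear-retained RNAs Malat1 and Neat1 differed by 0.81 and 1.00 with EGT in all chosen cells and by 0.84 and 0.88 in S100g-rich cells. In the opposite direction, 30 of 82 tested nuclear genes of oxidative phosphorylation and 24 of 84 ribosomal protein genes were lower with EGT in all chosen cells (medians -0.35 and -0.30), and 6 and 14 in S100g-rich cells (-0.16 and -0.21). These counts are at an unadjusted p under 0.05, at which 6.52% and 2.68% of all genes were lower in the same order of cells. Higher members of these lists are not given here. Rpl41 was 3485, 3756 and 3704 normalised CPM in S100g-rich cells of the AKI-CKD mice and 2700, 2136 and 2441 in the AKI-CKD + EGT mice. The part of the mitochondrial share and of nuclear RNA in the results with EGT was not tested.

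Ergothioneine is an antioxidant, and 25 of 26 antioxidant and metallothionein genes were tested. In AKI-CKD, 0 were higher and 2 lower at an unadjusted p under 0.05 (median -0.15), beside 5.03% and 5.88% of all genes. With EGT 1 was higher and 3 lower (median 0.03), beside 7.67% and 6.52% of all genes. In S100g-rich cells 24 were tested, with 0 higher and 0 lower by edgeR in AKI-CKD (median -0.04) and 1 higher and 1 lower with EGT (median -0.01). Nfe2l2, which encodes the oxidative stress regulator Nrf2, was 164, 196 and 175 normalised CPM in S100g-rich cells of the AKI-CKD mice and 101, 124 and 133 in those of the AKI-CKD + EGT mice (-0.60 ± 0.21), with 125, 225 and 166 in the Control mice. Gpx3, Fth1, Ftl1 and Gpx1 differed by at most 0.18 in size with EGT in all chosen cells.

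Changes were compared with those in Slc12a3 cells and principal cells by an interaction term of cell type and group. Each fit held the sums of both cell types from the same 9 mice, with mouse as a block. For AKI-CKD against Control, 4 of 9636 genes (0.0415%) differed from Slc12a3 cells and 5 of 9291 (0.0538%) from principal cells. For EGT against AKI-CKD these counts were 0 of 9636 (0%), with 827 at an unadjusted p under 0.05, and 3 of 9291 (0.0323%). The first count was 2 without Control mouse 1 or 2 and 0 without the third Control mouse or without AKI-CKD mouse 2 or 3. The second ran from 0 without Control mouse 3 or AKI-CKD mouse 1 to 11 without EGT mouse 3, and was 1 without AKI-CKD mouse 2, AKI-CKD mouse 3 or EGT mouse 2, 3 without Control mouse 1 and 10 without EGT mouse 1. The last ran from 0 without AKI-CKD mouse 1, AKI-CKD mouse 3 or EGT mouse 2 to 13 without EGT mouse 1. Klk1 was 1240, 1773 and 864 CPM in principal cells of the Control mice, 18168, 8132 and 6318 in the AKI-CKD mice, and 9454, 1459 and 4511 in the AKI-CKD + EGT mice. Its change in AKI-CKD was smaller in the chosen cells than in principal cells by 1.93 on the log2 scale (edgeR adjusted p = 0.0131). In principal cells the connecting tubule list summed to 6885 to 14574 CPM in Control mice, 18820 to 43670 CPM in AKI-CKD mice and 5955 to 21793 CPM in mice given EGT. That list holds Klk1 itself, so its sum is not separate from the Klk1 level. The part of connecting tubule RNA in this Klk1 difference was not tested. In S100g-rich cells 4 genes differed from principal cells in AKI-CKD, 0 higher and 4 lower, against 4 higher and 1 lower in all chosen cells. S100g in principal cells was 2472, 8166 and 3014 CPM in the Control mice, 19685, 9778 and 8738 in the AKI-CKD mice and 7426, 1857 and 4892 in the AKI-CKD + EGT mice. Pkhd1 (fibrocystin, a ciliary protein) was 505, 355 and 412 CPM in Slc12a3 cells of the Control mice and 183, 188 and 164 in the AKI-CKD mice. The chosen cells held 234, 184 and 139 CPM and 160, 180 and 167 CPM of it. Its difference of changes was 1.11 ± 0.20 (edgeR adjusted p = 0.0397). With S100g-rich cells it was 1.12 ± 0.24 (edgeR adjusted p = 0.30) and was not called.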

How the data were processed

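Single-cell RNA-seq of kidney tissue was made on a DNBelab C droplet system from polyadenylated RNA. The authors deposited 1 matrix of raw UMI counts per mouse, written by PISA 1.0 per the file headers, and the build named in the submitters' processing notes is GRCm39. The deposited counts were used as given. The 9 matrices held 216680 barcodes and 32427 gene symbols. Barcodes carry library-numbered names, so barcodes shared between libraries could not be counted. The 196925 kept cells are not the number that the study states. No doublet caller was run, and leaving out the 10% of chosen cells with the most UMIs stood in for one.

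The cells, the 1% S100g limit and the gene lists were chosen with earlier results of these data known, and members of a list are described by counts and medians only. UMIs were summed per mouse, and genes were tested with edgeR 4.0.16 (R 4.3.3, TMM factors, quasi-likelihood, low counts filtered, all 9 mice in 1 fit, limma 3.58.1). Normalised CPM uses the TMM factors, and plain CPM was used across cell types. The choosing genes were left out of calls. Some genes counted in the lists are not reported here by name. DESeq2 1.42.0, other filters, other limits of the rule and leaving out each mouse were alternatives. The S100g-rich set and the set without stromal or Ren1 UMIs were added after seeing the data. Shares were compared by two-sided exact permutation tests. Wilson 95% intervals of the share of chosen cells cover counting error only and were 0.506 to 0.704% for AKI-CKD mouse 3, the lowest. Named genes were the calcium, magnesium, sodium and potassium genes with folds at an unadjusted p under 0.05, up to 8 called genes each way at an average log2 CPM of 5 or more with no overlap of mice, up to 6 genes by unadjusted p where fewer than 4 were called, up to 5 interaction genes each way, up to 4 members of other lists with the highest level, and 15 leading genes. The up to 6 genes ranked by unadjusted p also needed an average log2 CPM of 5 or more and no overlap of mice. Replicates of each group differed beyond sampling noise, so none was counted as a repeat. Scripts were tested on simulated data. Python 3.11.15, numpy 2.4.6, scipy 1.17.1, pandas 2.3.3 and matplotlib 3.10.9 were used.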

Additional observations from a re-analysis of the deposited data

Results flagged for a closer look

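The change of 12 genes differed between the chosen cells and a neighbouring cell type by an interaction term (edgeR adjusted p from 0.00345 to 0.0397), and each value below is the log2 change in the chosen cells minus that in the other cells. In S100g-rich cells only Klk1 kept its call (edgeR adjusted p = 1.13e-06). Mgp could not be tested there, and the other genes had an edgeR adjusted p from 0.200 to 0.996. Causes were not tested.

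For AKI-CKD against Control and Slc12a3 cells, the difference was 1.11 for Pkhd1 (1.12 in S100g-rich cells), -2.39 for Ckb, a creatine kinase (-2.10 in S100g-rich cells), -3.29 for Pvalb (-1.33 in S100g-rich cells) and -9.12 for Mgp. Mgp was 4.401 and 1.74 CPM in Slc12a3 cells of AKI-CKD mice 1 and 2 and 523 CPM in those of mouse 3, so its value rests on 1 library. Ckb was 44.0, 66.6 and 146 CPM in the chosen cells of the Control mice and 19.1, 58.6 and 17.1 CPM in the AKI-CKD mice, against 99.4, 161 and 85.9 CPM and 163, 354 and 267 CPM in Slc12a3 cells.

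For AKI-CKD against Control and principal cells, the difference was 2.00 for Susd4, 1.36 for L1cam, 1.28 for Apela, 1.09 for Mal and -1.93 for Klk1, with 1.67, 0.87, 0.67, 0.60 and -2.61 in S100g-rich cells. L1cam, a cell adhesion gene, was 160, 223 and 277 CPM in principal cells of the Control mice and 183, 165 and 124 CPM in the AKI-CKD mice. The chosen cells held 50.4, 48.4 and 57.5 CPM of it in the Control mice and 101, 86.8 and 91.0 CPM in the AKI-CKD mice.

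For EGT against AKI-CKD and principal cells, the difference was 2.84 for Crip1, 1.92 for Klf4 and -1.40 for Arl4d, with 0.20, 1.14 and -0.82 in S100g-rich cells. The transcription factor gene Klf4 was 39.1, 140 and 114 CPM in the chosen cells of the AKI-CKD mice and 83.4, 254 and 210 CPM in the AKI-CKD + EGT mice, against 90.1, 194 and 222 CPM and 27.3, 92.1 and 124 CPM in principal cells.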

How the results depend on the processing

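Folds were followed for the calcium, magnesium, sodium and potassium genes with an unadjusted p under 0.05. They were also followed for the called genes and for the genes ranked by p within the naming limits. These folds kept their direction under every alternative that could be fitted. Of them, 973 kept their side of an adjusted p of 0.05, 93 moved under it and 131 above it. There were no such runs for other list members or leading genes. Interaction genes were also run under alternatives, and those runs are not in these counts. Of the list medians, 604 stayed within the spread while 36 moved. Calls were less stable. For AKI-CKD against Control in all chosen cells (0 calls), DESeq2 gave 49, no filter on low counts 206, the 6 compared mice alone 66, and single mice left out 0 to 95 (1 without Control mouse 1, 2 without Control mouse 2). For EGT against AKI-CKD (13 calls), DESeq2 gave 64, no filter 379, the 6 mice alone 8 (1 lower), a minimum of 6 marker UMIs 5 (0 lower), no limit on Slc12a3 5 (0 lower), leaving out the 10% of cells with the most UMIs 4 (3 lower), leaving out those richest in proximal tubule RNA 4 (1 lower), leaving out cells with stromal or Ren1 UMIs 29, S100g-rich cells 0, and single mice left out 0 to 572. In S100g-rich cells DESeq2 gave 1 call for AKI-CKD, and single mice left out 0 to 2 for AKI-CKD and 0 to 10 for EGT. The labels number the mice 1 to 3 in each group, and nothing in them says that a number marks a shared litter, batch or day. Over 9314 genes the deviations of same-numbered mice correlated at -0.0988 to -0.0168 for AKI-CKD against Control, where no mouse correlated best with its own number, and at 0.0252 to 0.0668 for EGT against AKI-CKD, where each of the 6 mice did. No correlation was over 0.1 in a same-numbered pair, so the numbers were not taken as pairs. With a replicate block the counts were 0 for AKI-CKD and 0 for EGT, so the 13 EGT calls were lost under it.

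For changes that differ from Slc12a3 cells in AKI-CKD (4 genes), no filter gave 24, no mitochondrial limit 2, S100g-rich cells 0 and single mice left out 0 to 4. With EGT (0 genes) these were 45, 2, 1 and 0 to 6. For principal cells in AKI-CKD (5 genes), no filter gave 17, S100g-rich cells 4 (0 higher, 4 lower, against 4 and 1 in all chosen cells) and single mice left out 0 to 11. With EGT (3 genes), no filter gave 18, no mitochondrial limit 6, S100g-rich cells 1 and single mice left out 0 to 13.

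The share of chosen cells in AKI-CKD minus Control (-0.134 points) turned to 0.0140 with a minimum of 6 marker UMIs, 0.209 with cells thinned to 2000 UMIs and 0.228 for S100g-rich cells, and ran from -0.276 to 0.113 with single mice left out (0.0298 without Control mouse 3, 0.113 without AKI-CKD mouse 3). The EGT difference (0.799 points) turned to -1.45 as a share of distal cells and -0.0123 for S100g-rich cells, was 0.441 with cells thinned to 2000 UMIs (exact p = 0.3) and 0.352 with a minimum of 6 marker UMIs, and ran from 0.553 to 0.941 with single mice left out. The causes were not tested. Between 139 and 380 chosen cells per mouse limit the genes that could be tested, and genes with counts under the filter were not tested in the main comparisons.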

Other observations

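Immediate early and heat shock genes, which respond to handling and dissociation as well as to injury, were measured in the chosen cells as a further list. Of 26 tested genes, 8 were higher and 1 lower in AKI-CKD than Control mice at an unadjusted p under 0.05 (median 0.46). In S100g-rich cells 2 were higher and 1 lower (median 0.30). Over all genes 5.03% were higher and 5.88% lower in all chosen cells, and 3.13% and 3.87% in S100g-rich cells. Genes low in 1 group could pass the filter through the others, so these counts and medians are no support for a direction. Klf2 was 31.3, 80.4 and 17.2 normalised CPM in S100g-rich cells of the Control mice, 57.1, 127 and 121 in the AKI-CKD mice and 23.4, 56.8 and 56.8 in the AKI-CKD + EGT mice. The chaperone gene Hsp90aa1 was 591, 700 and 680 in the Control mice, 487, 575 and 363 in the AKI-CKD mice and 431, 375 and 457 in the AKI-CKD + EGT mice. None of these differences passed the edgeR test.

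Red cell genes, a sign of blood RNA in a library, summed to 1.29 to 981 CPM in the chosen cells of the Control mice, 0 to 1.90 CPM in the AKI-CKD mice and 5.16 to 122 CPM in the AKI-CKD + EGT mice. Macrophage genes summed to 28.2 to 163, 25.5 to 68.0 and 24.9 to 159 CPM, lymphocyte genes to at most 21.6 CPM and cycling genes to at most 55.8 CPM. Intercalated cell genes summed to 169 to 204, 288 to 335 and 130 to 275 CPM, and thick ascending limb genes to 378 to 910, 265 to 364 and 411 to 537 CPM in the same order of groups. Markers of the distal convoluted tubule summed to 1028 to 1730, 1344 to 1626 and 890 to 1353 CPM. Principal cell markers summed to 810 to 1243, 1558 to 2261 and 653 to 1810 CPM. The rule limits members of the macrophage, intercalated, thick ascending limb, distal convoluted tubule and principal lists. Their sums are therefore partly set by the choice of cells.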
